A study of Mus musculus with 16 samples.

Results

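Dense chains were stretches of the mouse liver genome in which DNase hypersensitive sites (DHS) lay close behind one another. Peaks of 4 DHS lists were joined into regions where they overlapped by at least 1 bp, neighbouring regions of chromosomes 1 to 19 were chained where the gap between them was at most 5 kb, and chains of 6 or more regions were kept. Of 50655 regions, 956 (1.89%, Wilson 95% interval 1.77 to 2.01) were members of 140 dense chains. Another 22666 regions lay in chains of 2 to 5, and 27033 were lone. Wilson intervals here and below cover counting error only and treat regions as independent, although the members of a chain are neighbours.

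The 4 lists came from DNase-seq of purified liver nuclei of male and female mice, aged 8 weeks per the sample tags, with 4 libraries for each combination of sex and strain. The strains were C57BL/6J, called B6, which is the strain of the mouse reference genome, and CAST/EiJ, called CAST, a wild-derived inbred strain of another subspecies. Nuclei were treated with 32 units of DNase I, an enzyme that cuts accessible DNA, and the labels name no other treatment. Where 4 values follow one another below, they stand in the order male B6, female B6, male CAST, female CAST. The 4 libraries of a group had been merged before peaks were called, so each group was a single list (male B6 38751 peaks, female B6 26271, male CAST 39562, female CAST 24888), no spread between mice could be computed, and the comparisons below are descriptions without a test. Of 8 hepatocyte marker genes, 6 or 7 had a peak within 1 kb of a start site in each list, and 0 of 5 Kupffer cell markers did. Sinusoidal endothelial markers were open at 5, 3, 3 and 2 of 5 genes, and 1 of 5 stellate and bile duct markers was open in every list.

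A DHS marks DNA that transcription factors have cleared of nucleosomes, at promoters and at enhancers, which can act on a gene from a distance. Several enhancers are often found side by side around genes that define a cell type, and in hepatocytes such genes encode plasma proteins, apolipoproteins and liver transcription factors. HNF4, HNF1, C/EBP, FOXA and ONECUT factors bind many liver enhancers, STAT5 carries the growth hormone signal that sets much of the sex difference of the liver, and CTCF binds insulators and loop anchors.

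The sequences below, from the NCBIM37 assembly (mm9), plus strand, are 300 bases around a summit in male B6. They show the strongest region of 5 chains that results below turn on, and of the 1 chain made mostly of repeated sequence. Capitals mark matches to the motifs listed after them.
Intron of Zbtb16, C/EBP letters in capitals, chr9:48553156-48553455: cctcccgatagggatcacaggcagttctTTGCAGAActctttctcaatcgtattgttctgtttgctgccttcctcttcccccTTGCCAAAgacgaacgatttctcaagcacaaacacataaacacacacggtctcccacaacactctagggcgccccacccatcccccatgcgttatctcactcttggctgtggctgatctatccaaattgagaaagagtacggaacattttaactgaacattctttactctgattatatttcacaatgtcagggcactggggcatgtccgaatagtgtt
Intron in the 1110038D17Rik and Snrpd3 chain, FOXA letters in capitals, chr10:74967708-74968007: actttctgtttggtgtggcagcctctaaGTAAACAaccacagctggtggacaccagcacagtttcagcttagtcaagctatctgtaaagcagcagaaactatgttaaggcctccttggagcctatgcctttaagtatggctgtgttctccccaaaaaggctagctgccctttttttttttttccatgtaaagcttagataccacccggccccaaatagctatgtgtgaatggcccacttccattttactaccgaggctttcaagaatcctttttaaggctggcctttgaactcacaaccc
Between genes in the Slc25a33 chain, FOXA letters in capitals, chr4:149174053-149174352: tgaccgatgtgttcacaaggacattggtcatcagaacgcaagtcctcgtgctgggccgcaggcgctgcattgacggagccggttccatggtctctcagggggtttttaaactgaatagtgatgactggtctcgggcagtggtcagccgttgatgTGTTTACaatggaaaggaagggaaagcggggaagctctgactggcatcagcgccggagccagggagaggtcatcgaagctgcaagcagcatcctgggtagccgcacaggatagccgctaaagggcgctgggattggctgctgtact
Upstream of Clec2d, STAT letters in capitals, chr6:129125667-129125966: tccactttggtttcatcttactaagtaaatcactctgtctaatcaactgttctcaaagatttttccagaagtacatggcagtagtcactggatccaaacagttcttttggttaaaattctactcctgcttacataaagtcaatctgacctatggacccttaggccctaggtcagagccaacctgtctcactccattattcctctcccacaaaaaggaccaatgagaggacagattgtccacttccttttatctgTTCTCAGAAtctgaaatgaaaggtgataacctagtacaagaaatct
Start site of Apoc2, no match, chr7:20266553-20266852: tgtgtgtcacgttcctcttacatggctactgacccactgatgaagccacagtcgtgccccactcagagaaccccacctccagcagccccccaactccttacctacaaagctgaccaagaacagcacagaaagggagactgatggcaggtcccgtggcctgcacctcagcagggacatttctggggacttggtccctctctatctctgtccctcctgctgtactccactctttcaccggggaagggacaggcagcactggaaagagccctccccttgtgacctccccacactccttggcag
Predicted genes on chromosome 9, no match, chr9:3025382-3025681: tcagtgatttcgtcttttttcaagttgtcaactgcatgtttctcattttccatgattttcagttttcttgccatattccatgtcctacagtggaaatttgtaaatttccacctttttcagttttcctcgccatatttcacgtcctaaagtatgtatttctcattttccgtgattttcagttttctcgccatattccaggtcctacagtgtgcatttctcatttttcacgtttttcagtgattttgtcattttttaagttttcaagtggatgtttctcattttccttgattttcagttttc

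Over members as a whole, the interval for each motif included its share over all windows, but C/EBP letters differed once regions were split by distance to a start site. Both strands of the 300 bases around each summit were searched for CAAAGTCCA (HNF4), GTTAATNAT (HNF1), TTGCNNAA (C/EBP), TGTTTAC (FOXA), AATCAATA (ONECUT), TTCNNNGAA (STAT) and CCANNAGGG (CTCF). C/EBP letters were found in 16.8% of member windows and 17.2% of all windows. STAT letters were found in 11% and 9.93%, FOXA letters in 6.80% and 6.57%, and HNF4 letters in 1.88% and 1.67%. HNF1 letters were found in 1.36% of member windows (interval 0.796 to 2.31) and 2.07% of all windows, and ONECUT letters in 1.88% (1.19 to 2.96) and 2.5%. CTCF letters were found in 7.43% of member windows (5.93 to 9.26) and 6.01% of all windows, so that the lower bound of the interval lay just under the share over all regions. Within 2.5 kb of a start site (proximal regions), C/EBP letters were found in 16.9% of member windows (13.1 to 21.4) and 10.9% of all such windows, and farther away (distal regions) in 16.8% (14.1 to 19.9) and 20.2%. HNF4 letters were found in 2.23% of proximal member windows (1.08 to 4.53, from 7 windows) and 0.99% of all proximal windows. A match is a description of the letters and does not show that a factor was bound.

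Composition differed at start sites. Regions within 2.5 kb of an annotated start site were called promoter-proximal and the rest promoter-distal. Median GC content was 49.3% in member windows and 49.0% in all windows, but proximal members had 52.7% GC and 5 CpG dinucleotides per window, against 59.7% and 18 over all proximal regions. The dense chains thus held proximal regions poorer in CpG than most proximal regions of these lists.

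Most dense chains were small. Of the 140 chains, 88 had 6 regions, 31 had 7, 10 had 8 and 11 had 9 or more, and the largest had 27. The threshold cut a falling series of chain sizes: 227 chains of 5 regions lay just outside it. Those chains of 5 spanned a median 12.5 kb and those of 6 spanned 15.6 kb, and 39.4% of the regions were held by all 4 lists on both sides of the threshold. Over all dense chains the span had a median of 17.8 kb (7.08 to 59.7) and summed to 2.5 Mb, and regions covered a median 24.9% of the span.

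The number of gene starts in a dense chain varied. In 92 of the 140 chains at least 1 protein-coding start site lay within the span, and in 70 of them exactly 1 gene did, which gave 127 protein-coding genes in all. Of the 48 other chains, 18 lay within the span of a protein-coding gene, 15 of them more than 2.5 kb from any coding start site. The other 30 lay within no such gene as a whole, and 7 of these had members in exons or introns. The strongest member, by fold enrichment, was promoter-proximal in 49 chains, and 42 chains had no proximal member at all. The share of promoter-distal regions was 67.2% (64.1 to 70.1) of members and 67.3% of all regions, and member regions were 588 bp wide at the median against 601 bp. With a gap of at most 2.5 kb the distal share of members was 46.6% (35.6 to 57.9). With only peaks at or above the median −log10 q it was 47.2%, where 13820 of 24848 regions were distal.

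Genes of secreted plasma proteins were the listed group met most often in dense chains. Of 38 listed plasma protein genes, 10 (26.3%) had a start site in a dense chain, against 127 of 21281 autosomal protein-coding genes (0.597%). They were Alb (albumin), Ttr (the carrier of thyroid hormone and retinol-binding protein), Trf (transferrin, which carries iron), Ahsg (fetuin-A) and the apolipoprotein genes Apoa1, Apoa4, Apoc1, Apoc2, Apoc3 and Apoe, which lay in only 2 chains. Of 24 core hepatocyte transcription factor genes, 3 (12.5%) had a start site in a chain, namely Foxa3, Onecut2 and Cebpa, and of 30 genes listed for lipid and glucose metabolism 3 (10%) did. These 3 were Tat, which encodes an enzyme of tyrosine catabolism, and the sterol regulators Insig2 and Srebf1, so none encodes an enzyme of lipid or glucose metabolism itself. The count was 1 of 20 for growth hormone signalling and sex-biased regulators (Igf1), 2 of 30 for clock and immediate early genes (Dbp and Zfp36), 1 of 18 for housekeeping genes (Actb) and 0 of 25 for bile acid and drug metabolism genes. No listed marker of Kupffer cells (0 of 11), sinusoidal endothelium (0 of 14) or stellate cells and bile duct (0 of 14) had a start site in a chain. The lists and the chains were both chosen with these data known, and neighbouring genes share a chain, so the counts are descriptions.

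The peaks of dense chains were tall but stood on a high local background. Fold enrichment is the ratio of the pileup of reads at a summit to the background that MACS2 assigned to it, and both quantities were recovered from each peak's fold enrichment and p-value. Within male B6 the median member had a fold enrichment at the 37.7th percentile of the list and a summit pileup at the 67.9th, whereas the median lone region stood at the 57.0th and 45.8th. Female B6 gave 35.5 and 63.2 for members, male CAST 38.4 and 67.9, and female CAST 36.5 and 65.8. In male B6 the median member had 120 reads at its summit over a background of 36.6, and the median region of all had 79.0 over 20.4. With all peaks kept, members were therefore above the middle of every list by reads and below it by fold enrichment. With only peaks at or above the median −log10 q kept, the median fold percentile was 47.8, 53.9, 42.3 and 49.6. These ranks are still within the whole list, and that of female B6 was above its middle.

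**Figure D1:**
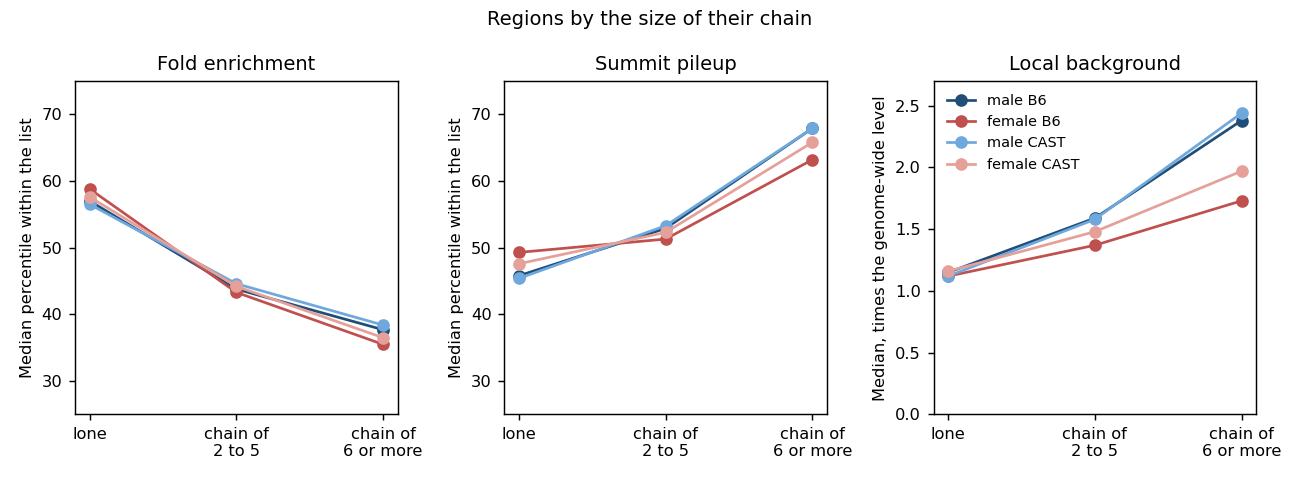
Medians over lone regions, regions in chains of 2 to 5 and regions in dense chains, for each of the 4 lists: fold enrichment and summit pileup as percentiles within the list, and local background as a multiple of the list's genome-wide background. In every list fold enrichment falls, pileup rises and background rises with chain size (male B6 37.7, 67.9 and 2.38 in dense chains).

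The local background rose with chain size in every list. Over dense chains its median was 2.38, 1.73, 2.44 and 1.97 times the genome-wide background, and over lone regions it was 1.12 to 1.16 times. The background exceeded the genome-wide level at 97.8% of members held by male B6 and at 80.4% of all its regions. The lists do not record which reads gave this background. If reads around a peak did, neighbouring members would count in it, so the rise cannot be told apart from the chaining rule. The part of the background in the lower fold enrichment was not tested.

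Male lists held more members than female lists, as they held more regions everywhere. Male B6 held 758 of the 956 members (79.3%, against 74.5% of all regions) and female B6 542 (56.7%, against 49.8%). Male CAST held 805 (84.2%, against 76.3%) and female CAST 551 (57.6%, against 47.3%). The male to female ratio of members was 1.40 in B6 (1.25 to 1.56) and 1.46 in CAST (1.31 to 1.63), and the counting intervals of both included the ratios over all regions, 1.5 and 1.61. These are Wilson intervals of the male share of both counts, and they take no account of regions that both lists hold. When every list was reduced to its 24888 peaks of highest −log10 q, which makes the lists equally long, the ratios were 0.992 and 0.940. Members were chosen by the positions of peaks in the 4 lists together, so these shares describe them and support nothing further.

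Chains followed the same order. Counted over both strains, 132 chains held more regions in the male lists than in the female lists, 7 held as many and 1 held fewer, and in 96 chains the male list held more in each strain. Between strains, 67 chains held more regions in the CAST lists, 49 more in the B6 lists and 24 as many. No such counts were made for smaller chains, and the male lists were longer. The counts therefore do not set dense chains apart from other chains. A list held 6 or more regions of the same chain in 54, 19, 64 and 16 chains.

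**Figure D2:**
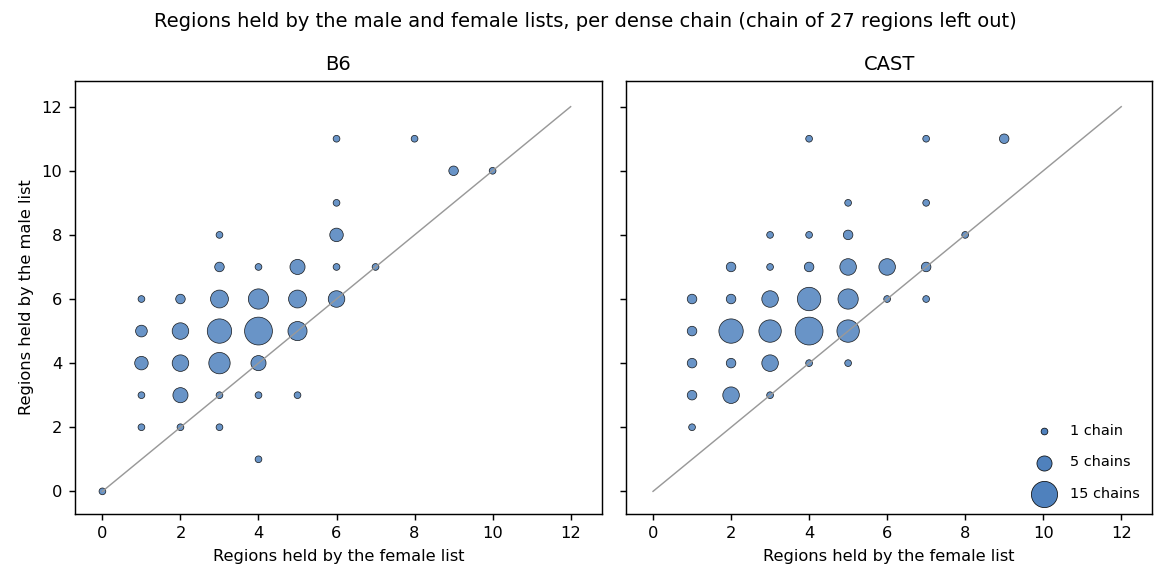
Number of regions of a dense chain held by the male list (vertical) and by the female list (horizontal), in B6 (left) and CAST (right), with circle area for the number of chains at a position, a line of equality, and the chain of 27 regions left out. Most chains lie above the line in both strains, and 1 chain holds 4 regions in female B6 and 1 in male B6.

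Among promoter-distal regions more members were held by all 4 lists than regions at large. All 4 lists held 409 members (42.8%, interval 39.7 to 45.9), against 35.5% of all regions, and a single list held 224 (23.4%), against 35.2%. Among promoter-distal regions all 4 lists held 248 of 642 members (38.6%, 34.9 to 42.5), against 24.1% of all distal regions. Among promoter-proximal regions they held 161 of 314 members (51.3%, 45.8 to 56.8), against 59.1% of all proximal regions. When peaks were joined only where they shared 50% of both, all 4 lists held 23.7% of members against 28.2% of all regions, at the stricter threshold 33.3% against 34.3%, and with lists of equal size 48.2% against 48.1%, so the difference over all members was not kept under these 3 settings. The distal shares in those settings were 22.4% against 18.9%, 32.8% (22.1 to 45.6) against 21.8%, and 41.9% against 34.5%. The proximal shares were 26.2% against 46.9%, 33.8% against 50.1%, and 58.5% against 69.5%, but with a gap of 2.5 kb they were 69.2% against 59.1% and in chains of 8 or more 66.2% against 59.1%. Distal members also had taller summits than distal regions at large, with a median pileup percentile in male B6 of 63.8 against 39.5, and the part of summit height in the sharing was not tested. First and last members of a chain were held by all 4 lists as often as inner members (42.9% of 280 and 42.8% of 676).

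**Figure D3:**
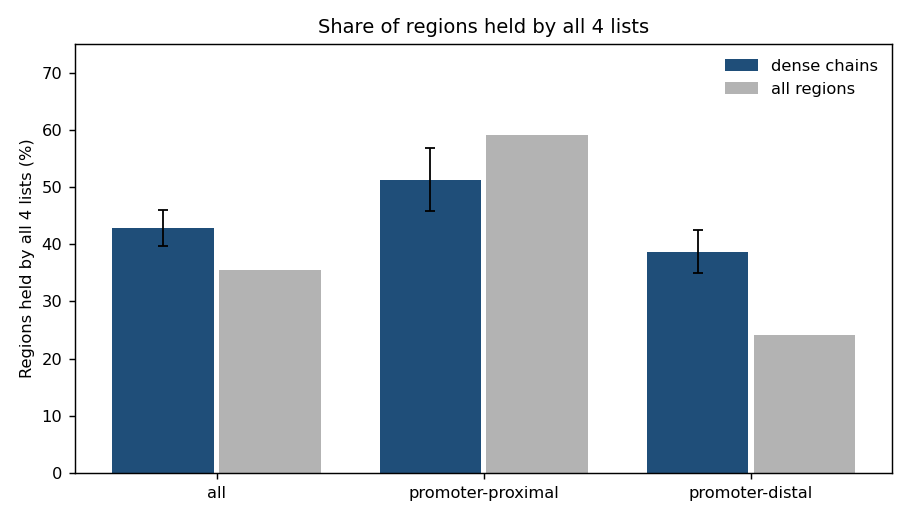
Percentage of regions held by all 4 lists, for all regions, promoter-proximal and promoter-distal regions, in dense chains (dark bars, with Wilson 95% intervals) and over all autosomal regions (grey bars). Dense chains stand above the rest among distal regions (38.6% and 24.1%) and below it among proximal regions (51.3% and 59.1%).

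No chain was held whole by all 4 lists. The median chain had 3 members in all lists, 9 chains had none, and 5 chains had 6 or more. Chains built from the B6 lists alone numbered 62 and those from the CAST lists alone 65, and 27 overlapped (43.5% of the first and 41.5% of the second). Within the spans of the B6 chains the CAST lists still held 378 regions, 3.36 per 10 kb against 0.164 per 10 kb of the genome, and every B6 chain held at least 1. Chains built from the male lists numbered 121 and those from the female lists 39, and 30 overlapped (24.8% and 76.9%).

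Members limited to a sex or a strain were scattered. Both male lists and no female list held 85 members (8.89%, against 9.37% of all regions), and both female lists and no male list held 1 (0.105%, against 0.0533%). Both B6 lists and no CAST list held 30 members (3.14%, against 3.30%), and both CAST lists and no B6 list held 48 (5.02%, against 3.64%). The 85 male-limited members lay in 62 chains, and no chain had more than 3. The 48 CAST-limited members lay in 40 chains, and 1 chain had 4.

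Where both lists of a pair held a region, large differences in fold enrichment were uncommon. The log2 ratio of the 2 fold enrichments was centred on its median over all regions held by both lists, and a region was called at a ratio of 1.5 or more either way. In B6, 3 of 508 members were higher in males (0.591%, against 2.52% of all regions) and 20 were lower (3.94%, against 2.55%). In CAST, 5 of 538 were higher in males (0.929%, against 3.26%) and 28 were lower (5.20%, against 2.56%). The median member stood at -0.15 on the log2 scale in both strains after centring, and the local background of members, relative to the genome-wide level, was higher in the male lists of both strains, whose part in the ratios was not tested.

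Strain ratios were closer to those of all regions. Between the male lists, 15 of 634 members were higher in B6 (2.37%, against 4.47%) and 50 were lower (7.89%, against 6.71%). Between the female lists, 35 of 420 members differed by 1.5 times or more either way (8.33%, against 8.44%). The median member stood at -0.02 in males and 0.02 in females on the centred log2 scale.

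The chain of Slc25a33, which encodes a mitochondrial pyrimidine nucleotide carrier, had 12 regions over 26787 bp (chr4:149147728-149174514). It had the widest difference in regions held between the male and female lists of a strain. Male B6 held 11 of its regions, female B6 8, male CAST 11 and female CAST 4. Female CAST was the shortest list, and a peak absent from it is not shown to be closed. At the Slc25a33 start site fold enrichment was 4.51, 4.79, 5.39 and 3.40. At the far end, between genes, regions differed in which lists were higher. The ninth region had fold enrichments of 6.01 and 4.82 in the B6 lists, 2.05 in male CAST and no peak in female CAST, and the eleventh had 4.05, 3.65, 1.92 and no peak. The tenth was higher in CAST, at 3.08, 3.04, 4.20 and 4.04. The last region, whose sequence is given above with its FOXA letters, had 6.22, 3.46, 5.27 and 3.48, higher in the male list of each strain.

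The chain of Ttr (11 regions, 34404 bp, chr18:20798636-20833039) was held by male B6 at every region, by male CAST at 9, by female B6 at 6 and by female CAST at 5. Its start-site region had fold enrichments of 6.18, 4.23, 4.72 and 3.99. A region 23092 bp from the start site had 4.69, 3.75, 8.12 and 6.63, so that it was the strongest of the chain in the CAST lists and second to the start site in the B6 lists. The regions missing from female B6 were among the weakest of male B6, with fold enrichments of 1.82 to 2.91.

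The chain of Apoc1, Apoc2, Apoc4 and Apoe, apolipoprotein genes of very-low-density and high-density particles, had 11 regions over 25392 bp (chr7:20261374-20286765), 9 of them promoter-proximal. Male B6 held 10 of its regions, female B6 9, male CAST 11 and female CAST 7. Its fold enrichments were even and moderate. The strongest region in every list, at Apoc2, had 3.56, 2.99, 4.22 and 4.09, and the Apoe start-site region had 2.56, 2.15 and 2.28 and no peak in female CAST.

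The chain of Alb had 8 regions over 20887 bp (chr5:90886199-90907085), held by male B6 at 5, female B6 at 4, male CAST at 5 and female CAST at 5. Only its start-site region and the last region were held by all 4 lists. The start-site region had fold enrichments of 5.16, 4.48, 4.84 and 3.69, and the last region, which overlapped an exon, 3.88, 3.04, 4.33 and 4.30. The 5 regions between them, at exons of the gene, were in no more than 2 lists each. The chain of Apoa1, Apoa4 and Apoc3 also had 8 regions (18968 bp), of which male B6 held 8, female B6 6, male CAST 7 and female CAST 5. Its strongest region was the Apoc3 start site, with 4.77, 3.16, 5.78 and 4.25.

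**Figure D4:**
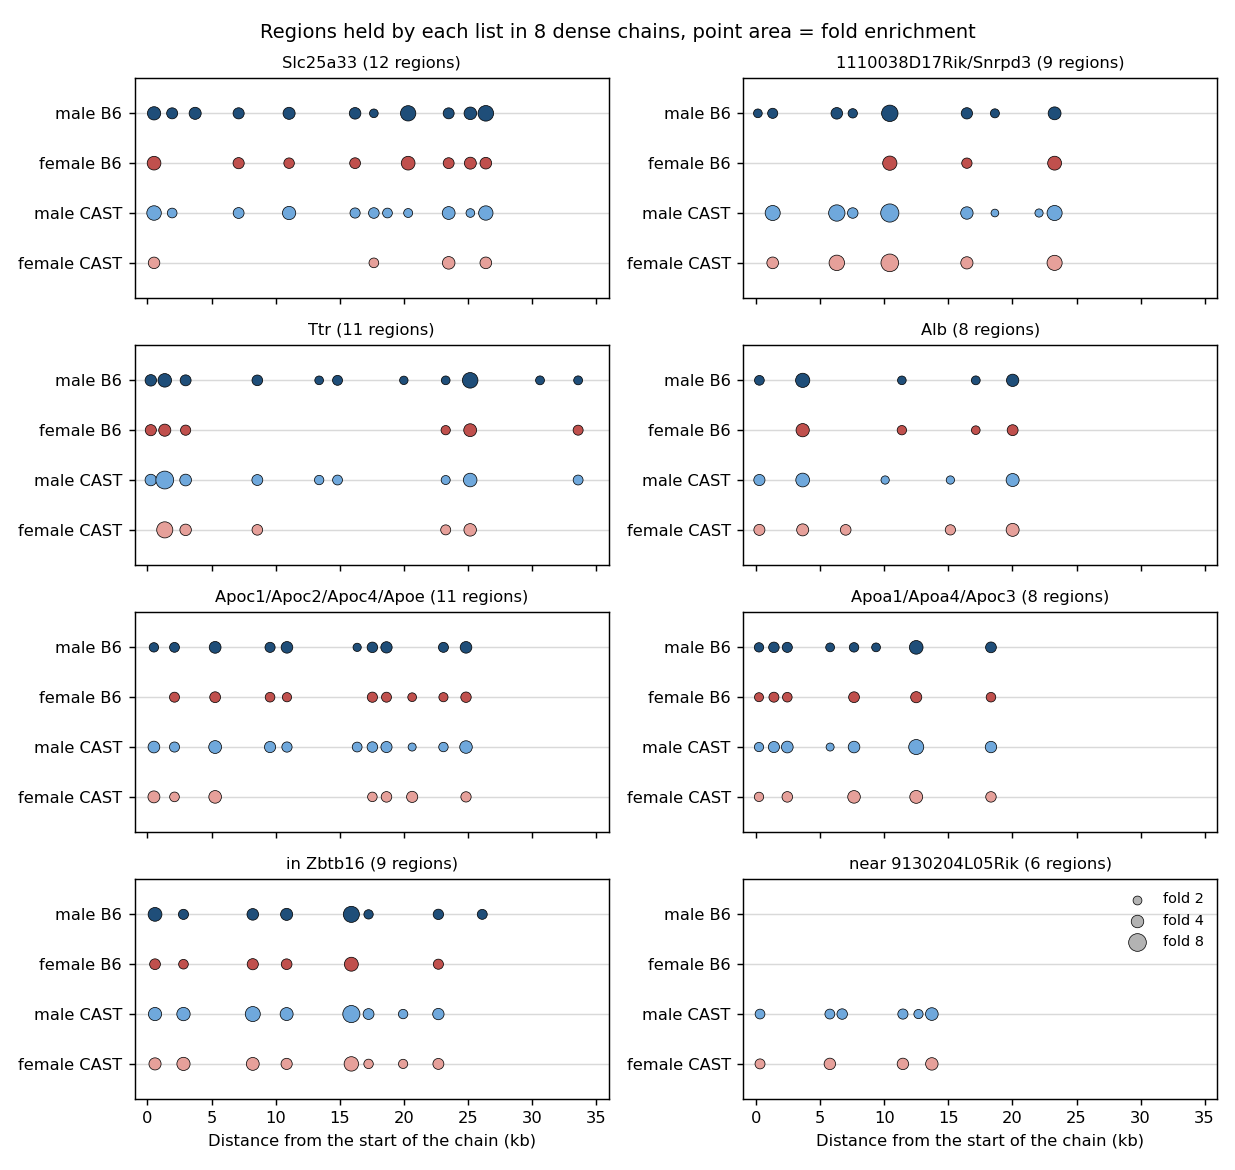
Regions held by each list in 8 dense chains, by distance from the start of the chain in kb, with point area for fold enrichment. Slc25a33 has 4 of its 12 regions in female CAST, Alb has only its second and last regions in all 4 lists, and the chain near 9130204L05Rik has points in the CAST lists alone.

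The chain with most regions that lay inside a gene, away from its start, was in Zbtb16, which encodes the transcription factor PLZF. It had 9 regions over 26357 bp (chr9:48537547-48563903), all in introns and 80147 to 105327 bp from the nearest annotated start site. Male B6 held 8 regions, female B6 6, male CAST 8 and female CAST 8, and 6 were in all lists. The fifth region, shown above with C/EBP letters at 2 places, was the strongest in every list, with fold enrichments of 6.60, 4.96, 7.47 and 5.32 and summit pileups of 433, 178, 467 and 142 reads.

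The chain of 1110038D17Rik and Snrpd3, a core protein of the spliceosome, had 9 regions over 23907 bp (chr10:74957085-74980991). Male B6 held 8, female B6 3, male CAST 8 and female CAST 5. The fifth region, an intron with FOXA letters, had fold enrichments of 6.89, 5.19, 8.45 and 7.96. The third region had 236 reads in male B6, 408 and 133 in the CAST lists and no peak in female B6. The chain of Nfic, a nuclear factor I gene, had 10 regions over 27019 bp, held at 8, 6, 7 and 7. The chain near Eif1a, 26192 bp or more from the start of that translation factor gene, also had 10 regions, all between genes, held at 9, 6, 9 and 7, with fold enrichments up to 8.32, 6.09, 9.41 and 8.92.

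The chains of the 3 listed core hepatocyte transcription factor genes had 7 or 8 regions. The chain of Cebpa, the founding C/EBP factor of hepatocytes, had 7 regions, of which male B6 held 7, female B6 5, male CAST 7 and female CAST 6, and the start-site region had fold enrichments of 4.82, 3.68, 4.28 and 4.07. The chain of Foxa3, with Irf2bp1 and Sympk, had 8 regions, held at 7, 5, 8 and 5, and that of Onecut2 had 8, held at 5, 4, 8 and 4. Tat, an amino acid catabolic enzyme gene, had 7 regions, held at 6, 4, 7 and 6. Dbp, a circadian transcription factor gene, shared a chain of 6 proximal regions with Rpl18 and Sphk2, held at 6, 6, 6 and 5.

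Chains that differed most by sex included Igf1, which encodes a growth factor that the liver secretes under growth hormone. Its 6 regions over 9038 bp (chr10:87320398-87329435) were held by male B6 at 5, female B6 at 1, male CAST at 5 and female CAST at 1. The first region had fold enrichments of 2.69 and 2.53 in the B6 lists and 2.37 in male CAST, and the last region 3.49 in male B6 and 2.40 in male CAST, with no peak in either female list. The fifth region had 2.84 and 2.95 in the CAST lists and no peak in either B6 list. The highest folds of this chain were 3.49, 2.53, 2.84 and 2.95, against list medians of 3.49, 3.28, 3.74 and 4.06. A peak that is absent from a shorter list is not shown to be closed. The chain near Ptpn1, a tyrosine phosphatase gene 61724 bp away, was held at 6, 3, 7 and 3 of its 7 regions. Its 3 regions held by both male lists and neither female list had fold enrichments of 2.2 to 2.99 in male B6 and 1.94 to 2.48 in male CAST.

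The only chain with more regions in the female lists was that of the chitinase-like genes Chi3l3 and Chi3l4 (6 regions, 18043 bp, chr3:106018892-106036934). Male B6 held 1 of its regions, female B6 4, male CAST 3 and female CAST 1. None was in all 4 lists, and every fold enrichment lay between 2.08 and 2.68 with 27 to 44 reads at the summit, so the chain was made of weak peaks.

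Several chains differed by strain. Rnf125, a ubiquitin ligase gene (chr18:21089482-21104686), had 6 regions held at 6, 5, 4 and 3, and its first region, 12644 bp from the start site, was held by every list, with fold enrichments of 13.3, 9.52, 13.4 and 13.3. The fourth region, 1011 bp from the start, had 7.18, 5.55 and 2.72 and no peak in female CAST. Nuak2, an AMPK-related kinase gene, was held at 6, 4, 3 and 2 of 6 regions, Ttc7 at 8, 6, 5 and 4 of 8, and Clec2d, which encodes a lectin-like ligand of natural killer cell receptors, at 6, 4, 4 and 2 of 7. The Clec2d region strongest in male B6, shown above with STAT letters, nonetheless had the higher fold enrichments in the CAST lists, with 6.52, 5.03, 8.28 and 7.24.

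Other chains were held more in CAST. Prpsap1 was held at 4, 3, 7 and 6 of 7 regions, and Sfxn1, a mitochondrial serine carrier gene, at 5, 3, 6 and 7 of 7. The chain near 9130204L05Rik (chr3:91036071-91050301), 141344 bp from that gene, had 6 regions in male CAST, 4 in female CAST and none in either B6 list, the 1 chain of which a strain had no peak. Its strongest region, the sixth, had fold enrichments of 4.11 in male CAST and 3.97 in female CAST, with 76 and 39 reads. The chains near Dux (2, 1, 8 and 3 of 8 regions) and near Gm7360 (3, 2, 6 and 4 of 6) also had more regions in CAST. Near Dux the median local background was 1.02 and 1.0 times the genome-wide level in the B6 lists and 7.59 and 5.25 times in the CAST lists, and the second region, held by all lists, had 43, 35, 193 and 104 reads at fold enrichments of 2.60, 2.41, 2.47 and 2.46. Near Gm7360 the background was 1.0 times in both B6 lists and 3.44 and 3.13 times in the CAST lists. The part of this background in the CAST regions of both chains was not tested.

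A few chains stood on a far higher background than the rest. The median chain apart from them was at 1.65 to 2.32 times the genome-wide background, but 3 chains with 44 members were over 10 times in at least 1 list. The largest chain, of Eif4enif1 and Sfi1 (27 regions, 59688 bp, chr11:3042902-3102589), had a median background of 30.3, 32.9, 68.7 and 67.8 times the genome-wide level. Its median fold enrichment was 1.47, 1.48, 1.42 and 1.46, yet 23 of its 27 regions were in all 4 lists, the most of any chain. The adjoining chain of Sfi1, a centrosome gene (6 regions), stood at 11.7, 12.2, 27.8 and 27.4 times.

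**Figure D5:**
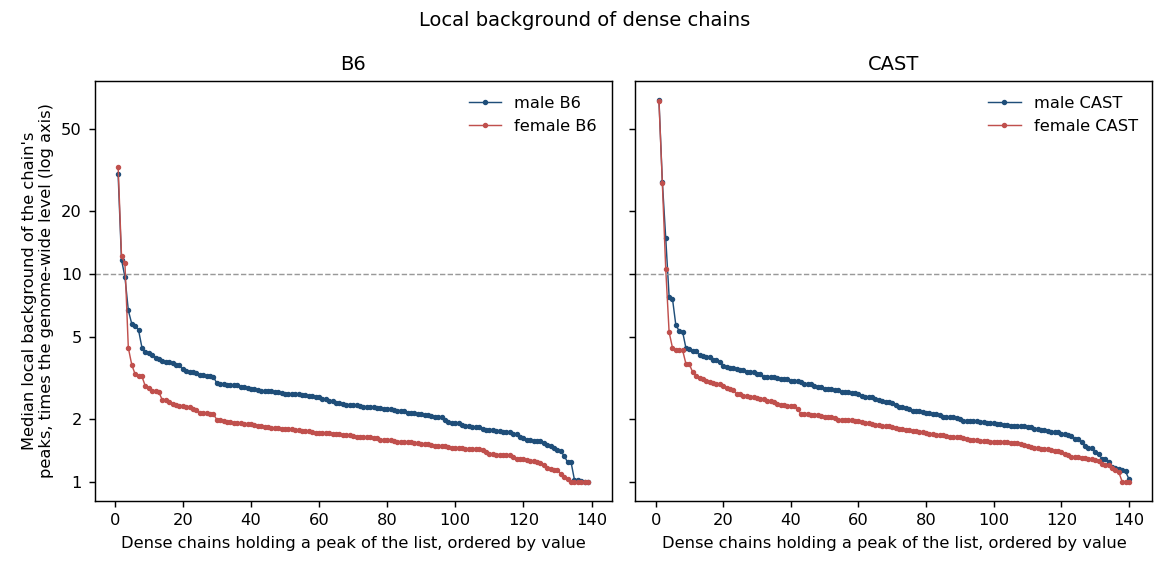
Median local background of the peaks of each dense chain, as a multiple of the list's genome-wide background (log axis), with chains ordered by value within each list, for B6 (left) and CAST (right). In each list 2 or 3 chains lie above the dashed line at 10 times, up to 68.7 times in male CAST.

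The third such chain held predicted genes from Gm10106 to Gm17535 (11 regions, chr9:3014918-3038245). It stood at 9.69, 11.3, 14.9 and 10.6 times the genome-wide background. It was the 1 chain whose windows consisted mostly of repeated sequence, since in the median window 67.7% of the 50-base words occurred more than once in the genome, and its fold enrichments reached 15.6, 15.4, 18.2 and 18 with up to 2935, 3030, 4393 and 2636 reads. In the Sfi1 chains the median share of repeated words was 0. Words were counted in the assembled genome alone, so copies missing from the assembly would not be seen. The chain near Olfr161 (12 regions, 28179 bp, chr16:3231702-3259880, held at 10, 9, 11 and 9) had 7.57%, lay 332518 bp or more from that olfactory receptor gene, and reached fold enrichments of 3.89, 3.60, 4.21 and 4.27. These chains lay at starts of the assembled chromosomes, as did chains in Insr and near Sepp1. The first 500 kb of assembled sequence held 68 members (7.11%) against 0.576% of all regions, a window that was chosen after the positions were seen. Without the 3 chains of highest background, 137 chains and 912 members remained.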

How the data were processed

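DNase-seq peak lists of male and female B6 and CAST liver were used, 1 pooled list for each sex and strain. Per the study's methods the authors kept reads that Bowtie2 placed at 1 position (in mm9 for B6, in mm9 carrying CAST variants for CAST, with coordinates then returned to mm9), merged the 4 libraries of a group, called peaks with MACS2 over input DNA (stated for ChIP-seq and DNase-seq together, and not recorded in the lists), and removed blacklisted regions and peaks of duplicated reads. The lists do not record whether those removals had been applied to them. A chain at 68.7 times the genome-wide background in male CAST was present in them. The deposited values per peak are the fold enrichment, a ratio of summit pileup to background, the −log10 p-value, and a score equal to −log10 of the q-value, each within its list. Read totals are not part of the peak lists and were not used here, so no depth is given. The genome-wide background was 15.4, 13.9, 14.3 and 7.94 reads in male B6, female B6, male CAST and female CAST.

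Summit pileup and background were recovered by solving fold = (pileup + 1)/(background + 1) with the Poisson p-value. Pileups came out whole within 0.02 for at least 99.9% of peaks. Genome-wide background is the commonest background of a list. Start sites were those of the mm9 gene annotation, all genes included, and a region counted as exonic before intronic. Joining, chaining, distances to start sites and pileup recovery were tested on simulated data (3296 regions and 3657 peaks) and recovered 100% of them. Python 3.11.15, pandas 2.3.3, numpy 2.4.6 and scipy 1.17.1 were used.

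The members, gene lists and motifs were chosen with earlier results of these data known. Chains are named by protein-coding genes with a start site inside, else by the protein-coding gene around them, else by the nearest protein-coding gene, even where a noncoding gene starts closer. The text names the 10 chains with most regions, the 5 longest, the 5 with the largest summed fold enrichment in male B6, the 5 with most regions in all lists, the 5 with the largest difference in regions held for each direction of sex and strain, and listed genes with a start site in a chain. Ties were broken by number of regions, then span, so chains tied for the last place are left out: Scp2 (9 regions), 6 chains tied with that near Ptpn1 for male over female, and Ces3b for CAST over B6. Alternatives were other gaps, chain sizes, overlaps, thresholds, list lengths and promoter limits. No replicate could be left out, because the lists are pooled.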

Additional observations from a re-analysis of the deposited data

Results flagged for a closer look

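In 6 chains the male list held more regions than the female list in one strain and fewer in the other. These opposite differences were not tested, since each list is a single measurement. The chain of Chi3l3 and Chi3l4 had 3 regions fewer in male than in female B6 (1 and 4) and 2 more in CAST (3 and 1), a gap of 5. Slc38a4, a sodium-coupled amino acid transporter gene, had a gap of 4, from 3 male and 5 female regions in B6 and 5 and 3 in CAST. The chain in Dapk1 had a gap of 3, with 2 and 3 in B6 and 5 and 3 in CAST. Sfxn1 had a gap of 3 the other way, with 5 and 3 in B6 and 6 and 7 in CAST. Slc6a9, a glycine transporter gene, had a gap of 2, with 3 and 4 in B6 and 5 and 4 in CAST, and the chain near Morc3 had a gap of 2, with 4 and 3 in B6 and 4 and 5 in CAST.

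Chromosome X, which the rule leaves out, held 2 chains of 6 or more regions among its 769 regions. They had 18 regions, of which male B6 held 12, female B6 6, male CAST 12 and female CAST 5. The chain of Mid1 and Gm15247 had 12 regions and that near Gm14950 had 6, all 6 in male B6, 4 in male CAST and none in a female list, with fold enrichments of 4.10 to 6.14 in male B6. Another 7 chains on chromosome X had 5 regions, and all 5 regions of the one near Gm14374 were in female B6 alone.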

How the results depend on the processing

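No paired analysis was possible because the 4 libraries of a group were merged into 1 list. The number of chains depends on the gap, the size limit and the lists, and peak lists without read totals limit comparisons between lists. Percentiles below are medians of fold enrichment in male B6, female B6, male CAST and female CAST, always within the whole deposited list. Under a setting that drops peaks they are therefore not ranks among the peaks kept. With a gap of at most 2.5 kb there were 9 chains, 73 members and 10 genes, 60.3% of members in all lists, ratios of male to female regions of 1.11 (B6) and 1.27 (CAST), 46.6% distal, and percentiles of 6.04, 2.80, 2.67 and 0.595. With a gap of at most 10 kb there were 1041 chains, 8054 members, 1407 genes and percentiles of 45.8, 45.2, 46.6 and 45.7. Chains of 5 or more gave 367 chains, 2091 members and 305 genes. Chains of 8 or more gave 21 chains, 211 members, 33 genes, 50.2% in all lists and percentiles of 25.8, 26.9, 30.9 and 18.3. Joining only peaks that shared 50% of both gave 330 chains, 2342 members, 263 genes and 23.7% in all lists, since overlapping peaks then count as separate regions. The stricter threshold, peaks at or above the median −log10 q, gave 15 chains, 123 members, 25 genes, 33.3% in all lists, ratios of 1.67 and 1.67, 47.2% distal and percentiles of 47.8, 53.9, 42.3 and 49.6. Lists of equal size gave 52 chains, 371 members, 62 genes, 48.2% in all lists, ratios of 0.992 and 0.940, 61.7% distal and percentiles of 45.6, 34.0, 47.9 and 29.1. A promoter limit of 1 kb gave 77.9% distal. Percentiles of the summit pileup, added after the data were seen, were 67.9, 63.2, 67.9 and 65.8. The shares of all regions in all lists under each setting were also added after the data were seen. Joining peaks within 500 bp, and leaving out the 3 chains of high background (also added after the data were seen), moved none of the results by more than the interval or 1.5 times for counts. The causes of the other moves were not tested.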
